A study of Mus musculus with 19 samples.

Results

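High fat feeding of mice without a working circadian clock in their heart muscle cells is described here, as the difference between 5 CCM hearts from the high fat diet and 5 CCM hearts from the normal diet, 10 of the 19 hearts measured. All mice were of the FVB/N strain and were fed for 16 weeks, and every heart was collected at ZT 18, midway through the active phase. CCM mice carry a transgene that removes clock function in cardiomyocytes only, per the design text. The sources used here give neither the promoter of the transgene nor the number of transgenic lines. The remaining 9 hearts came from wild-type (WT) mice on the high fat diet (4 animals) and on the normal diet (5 animals) and are used to test whether a diet difference in CCM hearts differed from that in WT hearts. Members were taken from the genotype and diet in the labels, and each array came from 1 animal.

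The heart burns mostly fatty acids. When more fatty acids arrive, they activate PPAR alpha, a nuclear receptor that raises genes for fatty acid oxidation and for sparing glucose. ATF4 is a transcription factor made when protein folding, amino acid supply or mitochondria are under stress, and it raises genes for amino acid and folate metabolism. Fgf21, a secreted metabolic hormone, is a known target of both factors. The cardiomyocyte clock normally sets the time of day at which many lipid genes of the heart are read.

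High fat diet changed few transcripts in CCM hearts at a level that passed the test across all genes. Of 14759 genes tested 4 were called, and among them Fgf21 and Aqp8 rose and Gcat fell. Fgf21 was undetected in every CCM heart on the normal diet and detected in every CCM heart on the high fat diet. A probe had to be detected on at least 4 arrays to be tested. Fgf21 was detected on 7, all from high fat hearts, so it entered the test only through them. This pattern of detection therefore describes Fgf21 and is no separate evidence, while its call also held with no detection filter. Of 24 measured PPAR alpha target genes, 24 had a positive difference, as did 48.4% of all genes tested, with a median of 0.27 on the log2 scale against -0.01 over all genes. Core clock genes had a median difference of 0.01, and none of them passed even an unadjusted p of 0.05.

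Because Fgf21 gave the smallest p and stands in both the PPAR alpha and the ATF4 gene list, its promoter is shown, beside that of Asns (asparagine synthetase, a textbook ATF4 target) for comparison. Both are RefSeq sequences of mouse assembly GRCm38.p6, covering the 250 bases before the annotated start. Fgf21 lies at chr7:45615491-45615740 and Asns at chr6:7693210-7693459, both on the minus strand. Capitals mark a match to TGATGNAA or, on the other strand, TTNCATCA, the form of the response element shared by C/EBP and ATF factors that was searched on both strands.
Fgf21: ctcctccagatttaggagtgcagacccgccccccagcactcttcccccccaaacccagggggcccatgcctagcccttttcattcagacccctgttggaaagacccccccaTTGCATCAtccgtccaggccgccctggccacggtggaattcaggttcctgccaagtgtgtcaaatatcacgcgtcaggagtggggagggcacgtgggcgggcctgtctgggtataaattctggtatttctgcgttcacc
Asns: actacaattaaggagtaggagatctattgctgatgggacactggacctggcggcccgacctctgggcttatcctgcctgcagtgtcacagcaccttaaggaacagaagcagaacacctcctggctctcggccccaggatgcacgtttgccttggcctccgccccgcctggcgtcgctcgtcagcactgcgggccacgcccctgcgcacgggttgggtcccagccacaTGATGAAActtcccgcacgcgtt
The match began 139 bases before the start in Fgf21 and 23 bases before it in Asns. Such a match stood in 3.45% of all 32851 promoters of this length. It stood in 6 of the 22 measured ATF4 list genes that have a promoter in the table, which were Asns, Atf3, Chac1, Fgf21, Herpud1 and Slc7a11. It also stood in 2 of the 19 PPAR alpha target genes with a promoter, Fabp3 and Fgf21. A direct repeat of the PPAR type, with AGGNCA half-sites 1 base apart on either strand, stood in 0.338% of all promoters and in 0 of the same 19 genes. Among the 22 ATF4 list genes it stood in 1, Gdf15. These are letter matches in a short window, and binding was not measured.

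The Clock transcript separated the genotypes as labelled. The brightest Clock probe read between 14.96 and 15.48 in the 10 CCM hearts and between 6.16 and 8.40 in the 9 WT hearts, on the log2 scale of normalized signal used throughout. Between high fat and normal diet in CCM hearts this probe differed by 0.19 ± 0.36 (limma adjusted p = 0.874), and another detected Clock probe differed by 0.14. Cardiomyocyte markers were bright on every array. The summed linear signal of 11 of them was 349371 to 365394 in CCM high fat hearts and 357233 to 363589 in CCM normal hearts. Each CCM array detected between 17117 and 18467 of 46643 probes at a detection p under 0.05. Mean bead signal was 432, 447, 534, 555 and 508 in CCM high fat replicates 1 to 5, and 496 to 564 in CCM normal hearts. High fat replicates 1 and 2 were thus among the 3 dimmest of the 19 arrays before normalization.

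At an adjusted p under 0.05 (limma, Benjamini-Hochberg over 14759 genes), 4 genes differed between high fat and normal CCM hearts, which is 0.0271% of those tested. The 3 genes that rose are 0.0203% and the 1 that fell is 0.00678%. At an unadjusted p under 0.05 the counts were 631 genes higher (4.28%) and 663 lower (4.49%). In 73 genes (0.495%) every high fat heart was above every normal heart, and in 119 genes (0.806%) every high fat heart was below. The number of calls depended on single animals: it was 0 when CCM high fat replicate 4, CCM normal replicate 1 or CCM normal replicate 3 was left out. It was 2 when CCM high fat replicate 2 was left out, and 8 when CCM high fat replicate 5 or WT high fat replicate 4 was left out.

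Fgf21 read 6.22, 7.24, 6.28, 6.37 and 6.03 in CCM high fat replicates 1 to 5, against 5.02, 5.02, 4.86, 5.18 and 5.0 in CCM normal replicates 1 to 5. All 5 high fat hearts stood above all 5 normal hearts, with replicate 2 highest. The fitted difference was 1.41 ± 0.20 (standard error, as for all differences below; limma adjusted p = 0.0146). Because no normal heart detected the probe, the change is a lower bound of at least 1.95-fold, set against the lowest signal among detected probes. The call did not hold without CCM high fat replicate 4, CCM normal replicate 1 or CCM normal replicate 3 (adjusted p up to 0.081), while the difference stayed between 1.22 and 1.51 over all 19 fits that left out 1 animal.

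Aqp8 encodes a channel for water and small uncharged molecules. Its probe read 6.06, 6.85, 6.68, 6.85 and 6.67 in CCM high fat hearts, all detected, against 5.16, 5.25, 5.20, 5.64 and 6.32 in CCM normal hearts, where 2 of 5 were detected. The groups overlapped only through normal replicate 5, which stood above high fat replicate 1. The rise was 1.11 ± 0.19 (limma adjusted p = 0.0387), and it was the least stable call. It held in 4 of 19 fits that left out 1 animal, those without CCM high fat replicate 1, CCM normal replicate 5, WT high fat replicate 4 or WT normal replicate 1, and the adjusted p reached 0.153 in the others.

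Gcat encodes a mitochondrial enzyme of threonine breakdown, and it was the single gene that fell. It read 8.79, 8.76, 8.83, 8.81 and 8.93 in CCM high fat hearts, against 9.49, 9.21, 9.41, 9.57 and 9.22 in CCM normal hearts. The 5 high fat values lay within a narrow band below every normal value. The level fell by 0.56 on the log2 scale (standard error 0.09, limma adjusted p = 0.0216). The call was lost without any 1 of CCM high fat replicates 1, 2, 3 and 4 or CCM normal replicates 1, 3 and 4, with an adjusted p of up to 0.108.

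**Figure D1:**
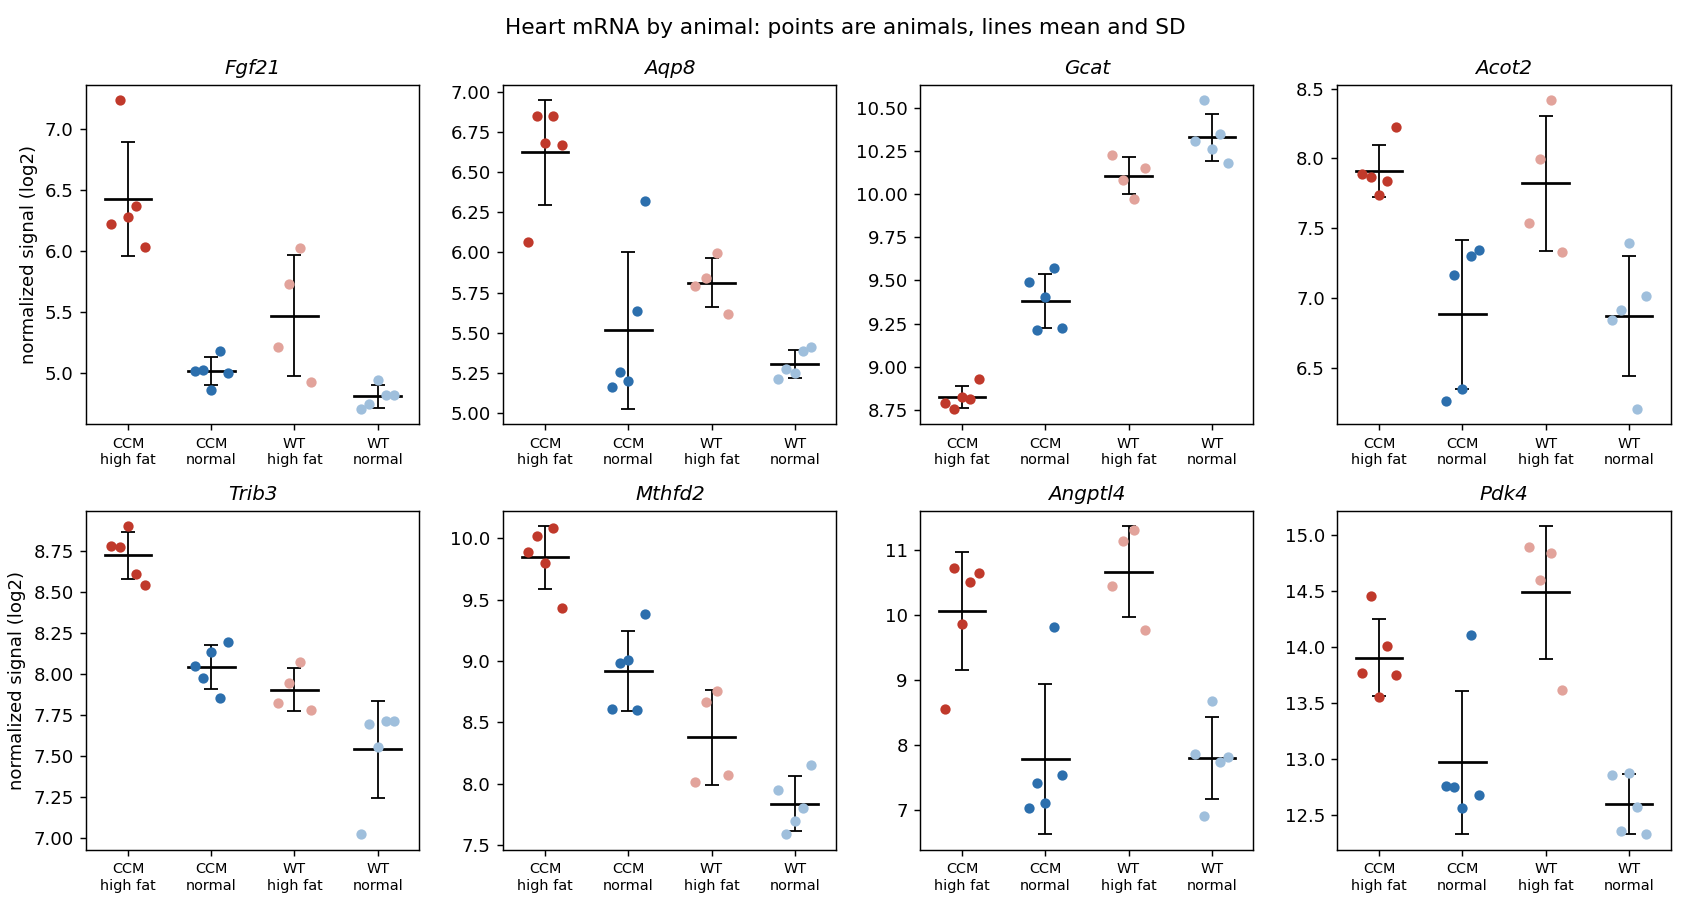
Normalized log2 signal (vertical axes) of 8 genes in each animal of the 4 groups, with points for animals and lines for the mean and SD. Fgf21, Gcat, Acot2, Trib3 and Mthfd2 separate CCM high fat from CCM normal hearts without overlap, while CCM normal replicate 4 stands among the high fat hearts for Angptl4 (9.82) and Pdk4 (14.11).

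Below these calls, 16 further genes complete the 20 of smallest p, with adjusted p from 0.0634 to 0.198, and are given as not called. Of the 20, 13 were higher and 7 lower on the high fat diet. In 18 the animals of the 2 diets did not overlap, beside 0.495% of all genes wholly above and 0.806% wholly below. Since p itself chose these genes, their separation describes them and tests nothing.

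Trib3, a pseudokinase that binds AKT and is read from ATF4, read 8.78, 8.77, 8.90, 8.61 and 8.54 in CCM high fat hearts, against 8.04, 7.98, 8.13, 7.85 and 8.20 in CCM normal hearts. Every high fat heart stood above every normal heart, with a difference of 0.68 ± 0.12 (adjusted p = 0.0634). Mthfd2, a mitochondrial folate enzyme and ATF4 target, read 9.88, 10.02, 9.80, 10.08 and 9.43 in CCM high fat hearts, against 8.61, 8.99, 9.01, 8.60 and 9.38 in CCM normal hearts. High fat replicate 5 stood just above normal replicate 5, so the diets did not overlap, and the difference was 0.93 ± 0.18 (adjusted p = 0.0645). Without CCM high fat replicate 5 both genes passed the threshold, as Mthfd2 did without CCM normal replicate 5 and Trib3 without WT normal replicate 1, the lowest adjusted p being 0.0074 for Trib3 and 0.041 for Mthfd2.

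Lipid and sugar genes stood among the 20 as well. Cidea, a lipid droplet protein that enlarges droplets, averaged 10.65 ± 0.10 in CCM high fat hearts and 9.98 ± 0.24 in CCM normal hearts (SD, n = 5 each), a difference of 0.67 ± 0.12 (adjusted p = 0.0634 in limma). Fbp2, the muscle form of fructose-1,6-bisphosphatase, averaged 11.26 ± 0.35 in CCM high fat hearts and 10.36 ± 0.16 in CCM normal hearts (SD, n = 5 each), a difference of 0.90 ± 0.17 (adjusted p = 0.0645 in limma). Neither gene overlapped between diets. Cidea passed without WT high fat replicate 4, with an adjusted p of 0.038, and Fbp2 without CCM high fat replicate 3, also with 0.038.

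Angptl4, a secreted inhibitor of lipoprotein lipase and a PPAR target, had the largest difference of the 20. It read 8.55, 10.72, 9.86, 10.52 and 10.65 in CCM high fat hearts, against 7.04, 7.42, 7.11, 9.82 and 7.54 in CCM normal hearts. Normal replicate 4 lay among the high fat hearts and above 1 of them. The difference was 2.27 ± 0.50 (adjusted p = 0.194 in limma), and without that animal it was 2.78 with an adjusted p of 0.0195. A dimmer Angptl4 probe, detected in 6 of the 10 CCM hearts, differed by 0.51.

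Of the lower genes that were not called, Abat encodes GABA transaminase, a mitochondrial enzyme. It read 7.95, 8.10, 7.81, 8.03 and 8.34 in CCM high fat hearts, against 9.15, 8.34, 8.74, 8.92 and 8.98 in CCM normal hearts. The diets did not overlap, although high fat replicate 5 and normal replicate 2 read the same to 2 decimals, and the difference was -0.78 ± 0.14 (adjusted p = 0.0634), which passed without either of those animals (lowest adjusted p 0.021). Whrn, a scaffold protein best known from hair cells, differed by -0.71 ± 0.13, and Tnnt1, the slow skeletal troponin T, by -0.59 ± 0.11 (adjusted p = 0.0645 for both). Bckdhb, a subunit of the branched-chain ketoacid dehydrogenase, differed by -0.42 ± 0.09 (adjusted p = 0.194). In each of these 3 genes every high fat heart was below every normal heart. Whrn passed without WT high fat replicate 4, with an adjusted p of 0.038.

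The remaining members of the 20 fall outside metabolism or lack a named role. Vgll2, a cofactor of TEAD factors in muscle, differed by 1.09 ± 0.22 (adjusted p = 0.0941) and was detected in 5 of 5 CCM high fat hearts and 2 of 5 CCM normal hearts. Dock8, an exchange factor for small GTPases in immune cells, differed by 0.70 ± 0.13 (adjusted p = 0.0645), and the homeobox gene Hlx by 0.59 ± 0.13 (adjusted p = 0.194). The other Dock8 probes were detected in no CCM heart. Fbxo21, an F-box protein of a ubiquitin ligase, differed by 0.56 ± 0.13 (adjusted p = 0.198). The transcripts 4833412C05Rik and LOC230628 differed by 1.19 ± 0.23 and -0.80 ± 0.16 (adjusted p = 0.0645 and 0.0941). A single left-out animal brought 3 of these genes past the threshold. Vgll2 passed without WT high fat replicate 4 (0.048), Dock8 without WT normal replicate 1 (0.036) and 4833412C05Rik without CCM high fat replicate 5 or WT high fat replicate 4 (lowest 0.038). A probe that the array file names only AlkPhos differed by -0.48 ± 0.10 (adjusted p = 0.107), and it was detected in all 10 CCM hearts and in none of the 9 WT hearts.

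**Figure D2:**
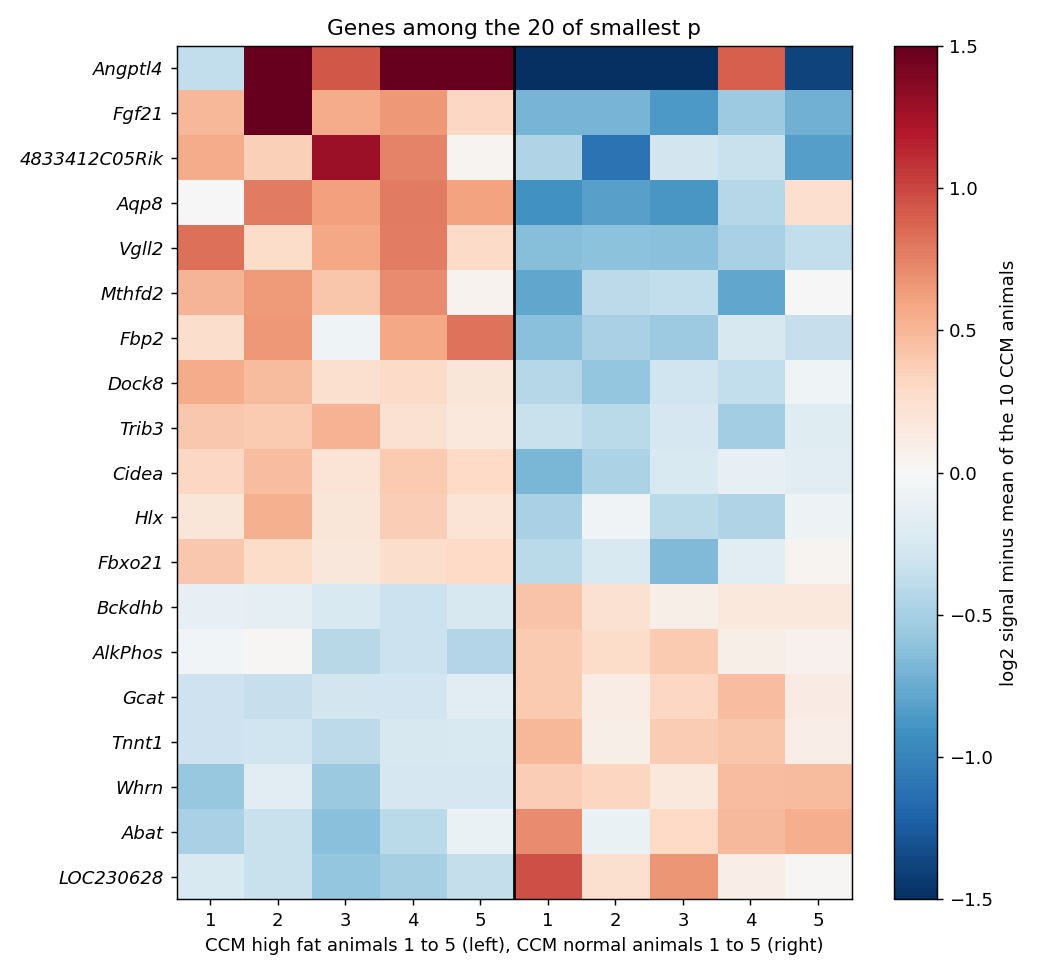
Heat map of 19 of the 20 genes of smallest p (rows) in the 10 CCM hearts (columns, high fat replicates left of the black line and normal replicates right), coloured by log2 signal minus the mean of the 10, with colours capped at 1.5 either way. The 12 higher genes drawn fill the upper block and the 7 lower genes the lower one, and normal replicate 4 breaks the pattern for Angptl4.

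PPAR alpha targets were the list with most genes at a small p. Of 30 genes listed, 28 were on the array and 24 passed the detection filter of at least 4 of 19 arrays. Of these 2 rose, among them Fgf21, beside 0.0203% of all genes, and none fell, beside 0.00678%. Fgf21 passed that filter only through high fat hearts. An unadjusted p under 0.05 with a positive difference was found in 11 of the 24, beside 4.28% of all genes. The median difference was 0.27, and in 3 genes every high fat heart was above every normal heart, beside 0.495% of all genes. When any 1 animal was left out the median stayed between 0.25 and 0.37 with 23 or 24 positive, and over the other alternatives between 21 and 24 were positive. The list was chosen with earlier results of these data known, so its counts are a description.

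Among the targets that were not called, Acot2, a mitochondrial thioesterase that releases fatty acids from CoA, read 7.89, 7.86, 7.74, 7.84 and 8.23 in CCM high fat hearts, against 6.26, 7.16, 6.35, 7.30 and 7.35 in CCM normal hearts. Its diets did not overlap, and the difference was 1.03 ± 0.25 (adjusted p = 0.26), although a second, dimmer probe differed by 0.23. Pdk4, the kinase that shuts pyruvate dehydrogenase and so spares glucose, read 13.77, 14.45, 13.55, 14.01 and 13.75 in CCM high fat hearts, against 12.76, 12.75, 12.56, 14.11 and 12.68 in CCM normal hearts. Normal replicate 4 exceeded 4 of the 5 high fat hearts. The difference was 0.93 ± 0.28 (adjusted p = 0.499), and 1.22 without that animal (adjusted p = 0.0794).

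Further down the list, Plin2, a lipid droplet coat protein, differed by 0.64 ± 0.19 (adjusted p = 0.499). Ucp3, a mitochondrial carrier linked to fatty acid load, differed by 0.57 ± 0.27 (adjusted p = 0.569), and its relative Ucp2 by 0.51 ± 0.22 (adjusted p = 0.56). Acadm, which starts the oxidation of medium-chain fatty acids, differed by 0.35 ± 0.14, and Cpt1a, which loads fatty acids for mitochondrial import, by 0.37 ± 0.16 (adjusted p = 0.56 for both). Without CCM high fat replicate 2 the Cpt1a difference was 0.22, and another Cpt1a probe was detected on no array. The smallest difference in the list was 0.0077. High fat replicate 2 was the highest high fat heart in 15 of the 24 genes, against 20.8% of all genes. Normal replicates 3 and 4 were each the highest normal heart in 8, against 22.2% and 14.5% of all genes.

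**Figure D3:**
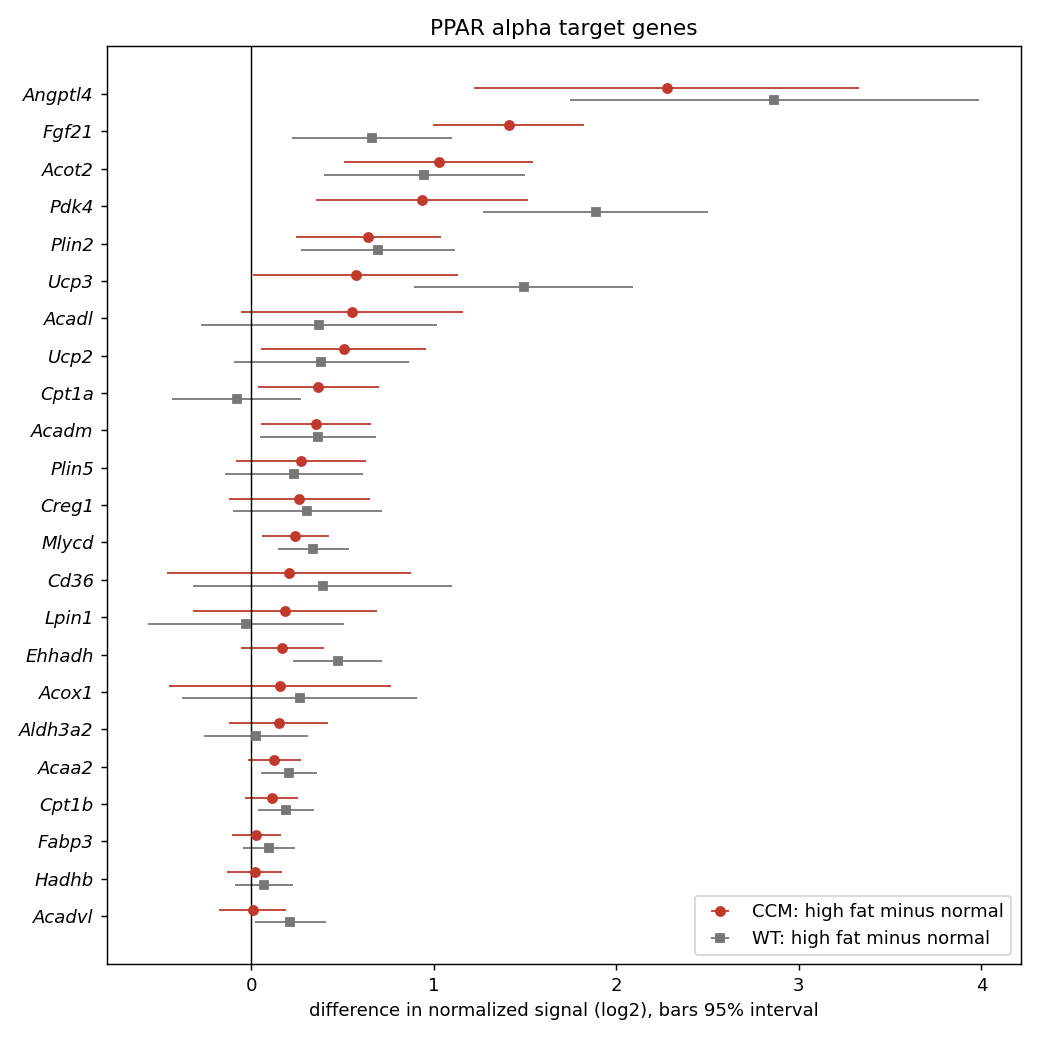
Difference between high fat and normal diet (log2, horizontal axis) for 23 of the 24 measured PPAR alpha target genes in CCM hearts (circles) and in WT hearts (squares), with 95% intervals as bars. All 23 CCM points lie right of 0, and Fgf21 lies further right in CCM than in WT hearts while Pdk4 and Ucp3 lie further left.

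Enzymes of fatty acid oxidation gave a smaller difference. Of 27 measured genes, 22 had a positive difference, beside 48.4% of all genes, and the median was 0.16. At an unadjusted p under 0.05, 8 were higher, beside 4.28% of all genes, and 0 passed the adjusted test in either direction. Decr1, which handles unsaturated fatty acids, read 11.36, 11.58, 11.05, 11.41 and 11.36 in CCM high fat hearts, against 10.55, 10.97, 10.95, 10.92 and 10.95 in CCM normal hearts. All high fat hearts were above all normal hearts, with a difference of 0.48 ± 0.11 (adjusted p = 0.26). The same separation held for Eci1, an isomerase of the same pathway (0.31 ± 0.08, adjusted p = 0.291), and Cpt2, the inner-membrane carnitine transferase (0.19 ± 0.07, adjusted p = 0.546). Separation of this kind was found in 3 of the 27 genes, beside 0.495% of all genes. Etfdh, which passes electrons from this pathway to the respiratory chain, differed by 0.40 ± 0.14 (adjusted p = 0.545). Without CCM high fat replicate 2 the list's median was 0.10.

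Triglyceride synthesis, the process named in the study's title, had 12 measured genes of 17 on the array. A positive difference was found in 10, beside 48.4% of all genes, and the median was 0.22. At an unadjusted p under 0.05, 5 were higher, beside 4.28% of all genes, and 0 were called. Agpat2, which adds the second fatty acid to glycerol phosphate, averaged 8.95 ± 0.23 in CCM high fat hearts and 8.51 ± 0.10 in CCM normal hearts (SD, n = 5 each) with no overlap, a difference of 0.43 ± 0.10 (limma adjusted p = 0.26). Glycerol kinase (Gk) differed by 0.44 ± 0.10 (adjusted p = 0.26). Gpat3, which starts the pathway, differed by 0.46 ± 0.16 and Gpd1, which makes glycerol phosphate, by 0.25 ± 0.09 (adjusted p = 0.545 and 0.557). Dgat2, which adds the last fatty acid, differed by 0.07 ± 0.10 (95% interval -0.13 to 0.28), with a sign that turned under 4 alternatives. The list's median was 0.02 among the animals numbered over 20, and 0.14 without CCM normal replicate 3.

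Neighbouring lipid lists had smaller medians. Fatty acid uptake and lipoprotein lipase genes had a median of 0.05 over 14 measured genes with 0 called. Lpl itself, the lipase that frees fatty acids at the vessel wall, averaged 14.94 ± 0.09 in CCM high fat hearts and 15.10 ± 0.02 in CCM normal hearts (SD, n = 5 each), a difference of -0.15 ± 0.06 (limma adjusted p = 0.56). Genes of triglyceride hydrolysis and lipid droplets had a median of 0.01 over 17 measured genes, with 0 called. Mgll, which cleaves the last fatty acid off glycerol, differed by 0.26 ± 0.08 (adjusted p = 0.499). Uncoupling proteins and acyl-CoA thioesterases were positive in 5 of 10 measured genes, and Acot4, dim in both groups, differed by 0.49 ± 0.12 (adjusted p = 0.26). Mlycd, which removes the malonyl-CoA brake on import of fatty acids, differed by 0.24 ± 0.09 (adjusted p = 0.557).

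Fatty acid and sterol synthesis had 26 measured genes, of which 10 were positive and 0 were called, with a median of -0.04. Its 3 genes at an unadjusted p under 0.05 were all lower on the high fat diet, as were 4.49% of all genes. Fasn, the fatty acid synthase, read 9.37, 9.95, 9.33, 9.27 and 9.32 in CCM high fat hearts, against 10.35, 9.77, 10.28, 10.97 and 9.73 in CCM normal hearts. The groups overlapped at high fat replicate 2, and the difference was -0.77 ± 0.20 (adjusted p = 0.363). Scd1, a desaturase, read 9.95, 10.86, 9.98, 9.99 and 10.18 in CCM high fat hearts, against 11.63, 10.44, 10.72, 12.34 and 10.40 in CCM normal hearts. It differed by -0.91 ± 0.31 (adjusted p = 0.545), and its relative Scd2, with no overlap between diets, by -0.33 ± 0.11 (adjusted p = 0.545).

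Adipocyte markers were read beside the lipogenic genes, and none of them passed the test. Adipoq, the adipocyte hormone adiponectin, read 6.37, 8.31, 5.83, 6.02 and 6.99 in CCM high fat hearts, against 8.44, 7.0, 7.47, 9.52 and 6.98 in CCM normal hearts, with the same high fat and the same normal replicate highest as for Fasn and Scd1. Of 10 adipocyte markers, 6 were measured and 1 was positive, with a median of -0.67. Their summed linear signal was 840, 1904, 710, 647 and 995 in CCM high fat replicates 1 to 5, against 1867, 1044, 1072, 4222 and 942 in CCM normal replicates 1 to 5. Lep, Retn, Plin1 and Pck1 were detected in no CCM heart. Without CCM normal replicate 4 the differences were -0.58 for Fasn, -0.60 for Scd1 and -0.77 for Adipoq (adjusted p from 0.446 to 0.511), and the marker median was -0.37 without that animal and -0.90 without high fat replicate 2. In WT hearts all 6 markers were positive (median 0.40), while Fasn differed by -0.25 and Scd1 by -0.07. In such bulk tissue, fewer cells of a type and less RNA per cell cannot be told apart, and the part of the markers in the lipogenic difference was not tested.

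**Figure D4:**
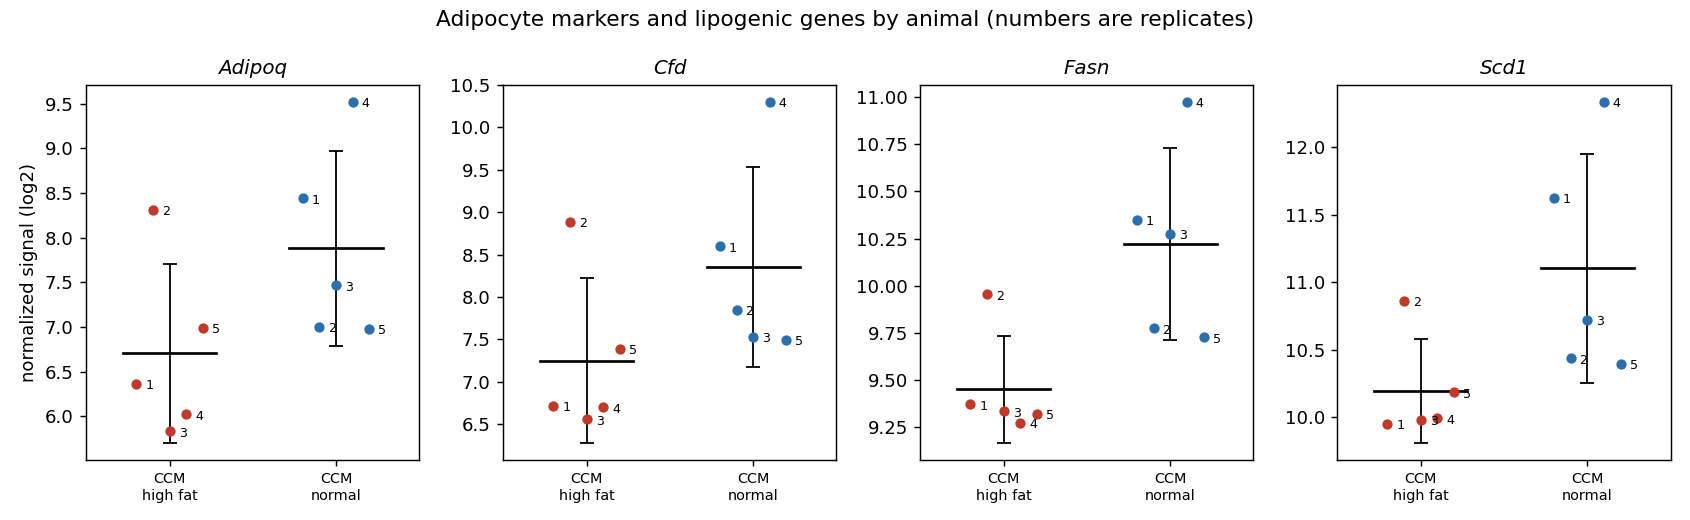
Normalized log2 signal of 2 adipocyte markers (Adipoq and Cfd) and 2 lipogenic genes (Fasn and Scd1) in each CCM heart, with replicate numbers beside the points and lines for the mean and SD. High fat replicate 2 and normal replicate 4 are the highest of their groups in all 4 genes.

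Genes of the ATF4 and unfolded protein response had a median difference of 0.28 over 23 measured genes of 26 on the array. Of these 18 were positive, beside 48.4% of all genes, and 6 were higher at an unadjusted p under 0.05, beside 4.28%. Fgf21 alone rose, beside 0.0203% of all genes, and it had passed the detection filter only through high fat hearts. Fgf21, Trib3 and Mthfd2, of which the last 2 were not called, stood among the 10 genes of smallest p. Gdf15, a secreted stress hormone, read 8.69, 8.86, 9.19, 9.13 and 7.97 in CCM high fat hearts, against 7.52, 7.23, 6.83, 8.85 and 6.81 in CCM normal hearts. Normal replicate 4 again overlapped the high fat hearts, and the difference was 1.32 ± 0.38 (adjusted p = 0.467). Asns and Ddit3 (which encodes the stress factor CHOP), singled out after their values were seen, differed by 0.46 ± 0.14 and 0.64 ± 0.20 (adjusted p = 0.501 for both). A second, dimmer Asns probe, detected in all 10 CCM hearts, differed by 0.04.

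This list depended on which animals were compared. Animals numbered under 20 (3 per diet) gave a median of 0.51, and animals numbered over 20 (2 per diet) gave 0.0029. Without CCM high fat replicates 1 and 2, in values normalized over all arrays, the median was 0.11. It was 0.18 without CCM normal replicate 3. CCM high fat replicates 1 and 2 are among the 3 dimmest arrays and are also numbered under 20. The sources used here do not say what an animal's number stands for.

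Across all 14759 genes, the diet difference among animals numbered under 20 had a Pearson correlation of 0.02 with that among animals numbered over 20 (Spearman 0.003), a description across genes that share arrays. Taken alone, either set of animals gave 0 calls in limma, with 2761 and 333 genes at an unadjusted p under 0.05. With animal number as a block in the fit of all arrays, 10 genes were called. Beside the 4 calls these were Abat, Cidea, Fbp2, Tnnt1, Trib3 and Whrn, at adjusted p from 0.0346 to 0.0446.

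Ketone body and branched-chain amino acid genes differed in sign. Bdh1, which converts ketone bodies in the mitochondrion, differed by 0.51 ± 0.20 (adjusted p = 0.56). The branched-chain dehydrogenase subunits Bckdhb and Dbt were lower in every high fat heart than in any normal heart, with Dbt at -0.28 ± 0.09 (adjusted p = 0.501). The median of the list was -0.07, and it became -0.11 when CCM high fat replicate 2 was left out and -0.02 when CCM normal replicate 5 was.

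Among glucose genes, 12 of 28 measured were positive, the median was -0.01 and 0 were called. Pfkp and Pfkfb2, which set the rate of glycolysis, differed by 0.66 ± 0.26 and 0.34 ± 0.14 (adjusted p = 0.56 for both). Ugp2, which makes the sugar donor for glycogen, differed by 0.41 ± 0.12 (adjusted p = 0.499). Pyruvate dehydrogenase and its regulators had a median of 0.0038 over 12 measured genes, with Pdk1 at 0.24 ± 0.10 (adjusted p = 0.56). The PPAR, RXR and PGC-1 regulators themselves had a median of 0.0025 over 18 genes, with none at an unadjusted p under 0.05. The coactivator gene Ppargc1a differed by -0.30 ± 0.29 (95% interval -0.90 to 0.31).

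Core clock genes were positive in 10 of 18 measured and had a median of 0.01 (range -0.23 to 0.42). Clock-output genes had a median of -0.05 over 9 measured, 3 of them positive and 0 called. Usp2, a rhythmic deubiquitinase, differed by -0.40 ± 0.19 and Rcan1, an inhibitor of calcineurin, by 0.26 ± 0.11 (adjusted p = 0.569 and 0.56). Since a single time of day was sampled, a level and a shifted rhythm cannot be told apart.

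Cardiac stress genes were positive in 20 of 27 measured, with a median of 0.05 and 0 called. That median was 0.03 without CCM normal replicate 2 and 0.11 without CCM high fat replicate 1. Acta1, the skeletal actin that the stressed heart re-expresses, read 14.99, 15.23, 15.14, 15.20 and 15.07 in CCM high fat hearts, against 14.83, 14.10, 14.94, 14.56 and 14.44 in CCM normal hearts. The diets did not overlap, and the difference was 0.55 ± 0.14 (adjusted p = 0.309). Ankrd1, a stretch-responsive sarcomere protein, also separated the diets, by 0.57 ± 0.16 (adjusted p = 0.408). Of 7 measured skeletal muscle markers, 4 were positive, and Tnni2, a fast skeletal troponin, differed by -0.73 ± 0.20 (adjusted p = 0.434). Their summed signal was 42028 to 47740 in CCM high fat hearts and 27550 to 41886 in CCM normal hearts. Acta1 made most of this sum, and without it the other 6 summed to 8912 to 10089 in CCM high fat hearts and 9943 to 10622 in CCM normal hearts.

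Extracellular matrix genes had a median of 0.15 over 33 measured, with 23 positive and 0 called, and 0.08 without CCM normal replicate 5. Lum, a collagen-binding proteoglycan, averaged 11.62 ± 0.08 in CCM high fat hearts and 11.17 ± 0.29 in CCM normal hearts (SD, n = 5 each), a difference of 0.45 ± 0.15 (limma adjusted p = 0.545). Fibroblast markers had a median of 0.12 over 11 measured, with 8 positive, and 0.07 without CCM normal replicate 1. Interferon and antigen presentation genes had a median of 0.17 in CCM and -0.26 in WT hearts over 22 measured genes, with 18 and 3 positive and 0 called in CCM. B2m, the light chain of class I antigen-presenting molecules, differed by 0.37 ± 0.16 in CCM and by -0.33 ± 0.17 in WT hearts (difference between genotypes 0.71, 95% interval 0.21 to 1.20, adjusted p = 1.0). B2m was picked out of its list, so this unadjusted interval describes it and tests nothing. The list's CCM median was 0.05 without high fat replicate 3 and 0.31 without high fat replicate 2. Acute inflammation genes had a median of -0.13 over 15 measured, which was 0.11 without CCM normal replicate 5.

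Chaperones had a median of 0.0015 over 23 measured genes, with Hspb6, a small heat shock protein of muscle, at 0.44 ± 0.10 (adjusted p = 0.26) and Dnajb5 at -0.30 ± 0.10 (adjusted p = 0.545). Hspb6 was above in every high fat heart and Dnajb5 below. The respiratory chain, proteasome, sarcomere and TCA cycle lists had medians between -0.03 and -0.01 with 0 called among 32, 31, 23 and 17 measured genes. Calcium handling, insulin signalling, xenobiotic, antioxidant and immediate early lists had medians between 0.01 and 0.03 with 0 called. Egr2, an immediate early transcription factor, differed by 0.79 ± 0.22 (adjusted p = 0.397), and by 1.03 without CCM high fat replicate 5, where it passed with an adjusted p of 0.036. Psmc1, a proteasome subunit singled out after its values were seen, differed by 2.27 ± 1.31 (adjusted p = 0.595), with its probe detected in 4 of 5 CCM high fat hearts and 1 of 5 CCM normal hearts.

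**Figure D5:**
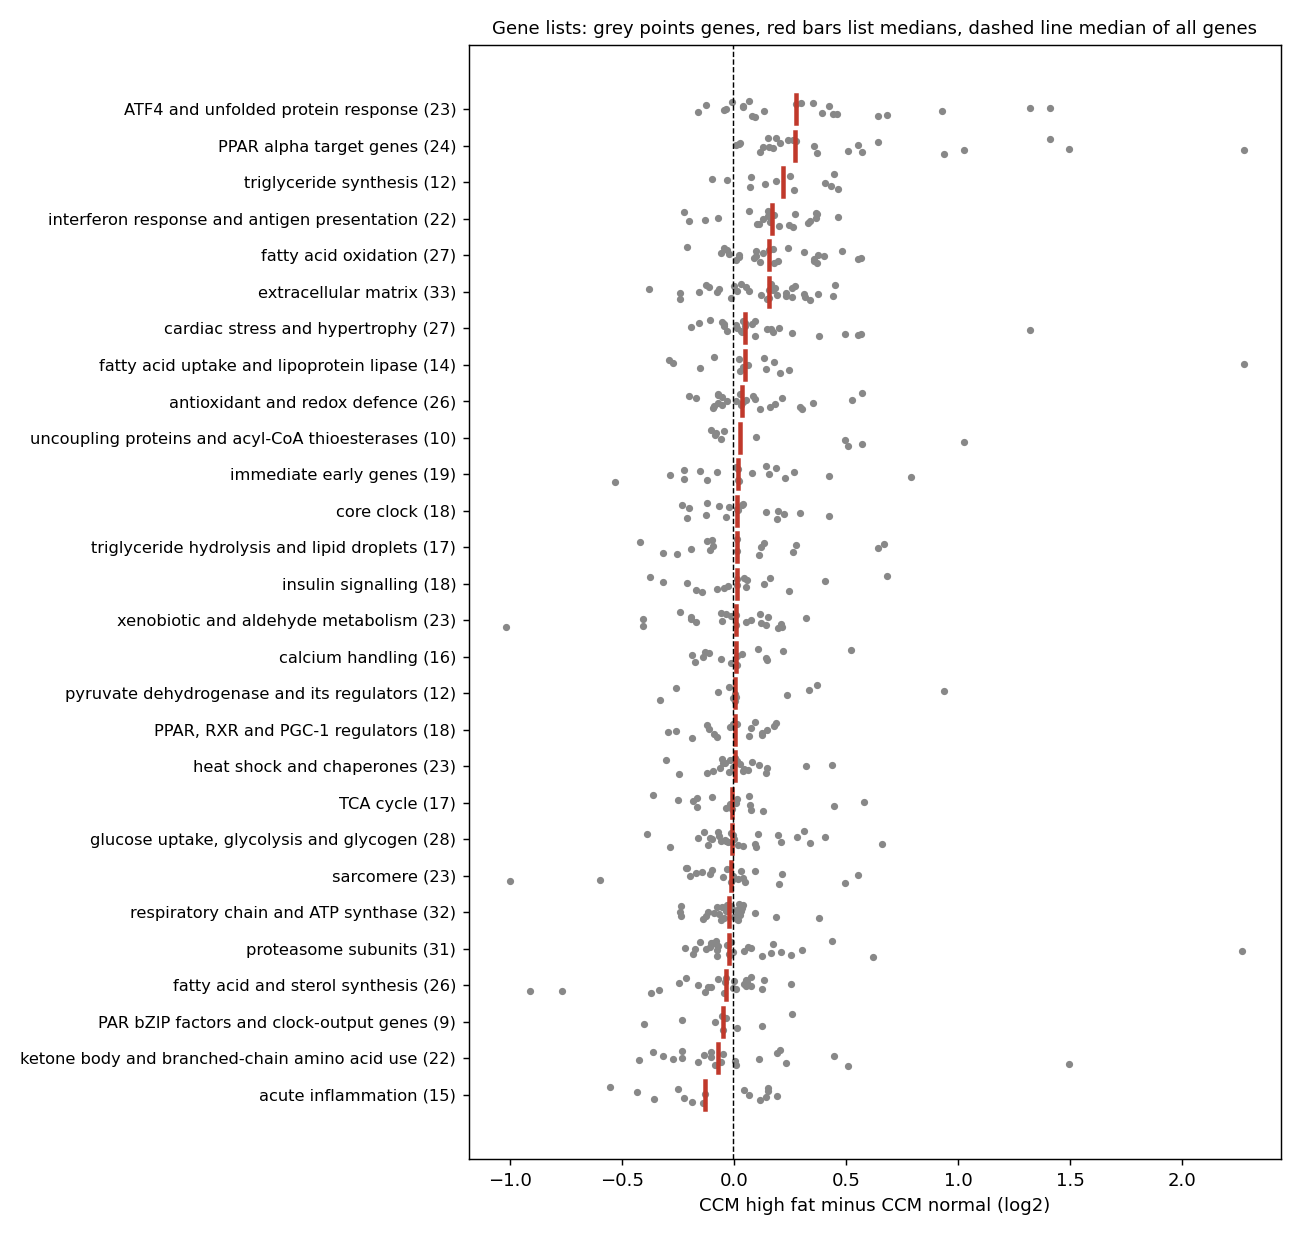
Difference between high fat and normal diet in CCM hearts (log2, horizontal axis) for the measured genes of 28 lists, with grey points for genes, red bars for list medians, the number of measured genes in brackets and a dashed line for the median of all genes. The ATF4, PPAR alpha and triglyceride synthesis lists have the highest medians (0.28, 0.27 and 0.22), and the acute inflammation list the lowest (-0.13).

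Markers of other cell types were checked beside these lists. All 7 measured erythroid markers were positive, with a median of 0.31, and their summed signal was 79005 to 106320 in CCM high fat hearts and 62010 to 85361 in CCM normal hearts. Hba-a1, an alpha globin gene, differed by 0.74 ± 0.17 (adjusted p = 0.26) and Alas2, which starts haem synthesis in red cells, by 0.60 ± 0.22 (adjusted p = 0.56). Endothelial and macrophage markers had medians of 0.10 and 0.11 over 13 measured each, 9 of them positive in either list. The macrophage median was 0.0070 without CCM normal replicate 1 and 0.22 without CCM normal replicate 5, and among animals numbered over 20 it was -0.08 with 3 positive. Cldn5, a tight junction protein of endothelium, differed by 0.57 ± 0.18 (adjusted p = 0.501). Some other marker lists had negative medians, with 0 genes called. Smooth muscle markers had -0.11 with 2 of 8 positive, Schwann and neuronal markers -0.19 with 1 of 3 positive, and atrial markers -0.30 with 2 of 4 positive. The atrial median became -0.53 when CCM high fat replicate 5 was left out and -0.04 when replicate 4 was, and it was -0.97 among animals numbered over 20. The brown fat markers Ucp1, Elovl3 and Otop1 and 5 of 6 lung markers were detected in no CCM heart. The part of red cell RNA in any difference above was not tested.

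Set against WT hearts, no gene's diet difference in CCM hearts was shown to differ. The test of the difference between genotypes called 0 of 14759 genes in limma, with 400 (2.71%) at an unadjusted p under 0.05, and the smallest adjusted p was 1.0. Gm12250 had the smallest p, with 0.37 in CCM and -0.45 in WT hearts. Next was 2210409D07Rik, with 0.33 in CCM hearts, none of which detected it, and 1.28 in WT hearts. Dmtn, Zfp72 and Mtfmt followed, each negative in CCM and positive in WT hearts.

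For Fgf21, Gcat and Aqp8 the intervals of that difference were wide. The small p of their CCM diet difference picked these genes, and that difference is part of the one between genotypes. Their intervals therefore describe them and test nothing. The same holds below for Vgll2, for Pdk4, which its WT call picked, and for Ucp3, which was picked out of its gene list. Fgf21 differed between diets by 1.41 in CCM and by 0.66 in WT hearts, and the difference between genotypes was 0.75 (95% interval 0.14 to 1.35, unadjusted). It was detected in 2 of 4 WT high fat hearts and in none of the 5 WT normal hearts. Gcat gave -0.56 in CCM and -0.22 in WT hearts, and Aqp8 1.11 in CCM and 0.51 in WT hearts, with the interval of the difference from -0.60 to -0.07 for Gcat and from 0.03 to 1.17 for Aqp8. None of these passed after adjustment over all genes (adjusted p = 1.0).

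In WT hearts 6 genes were called for the diet (0.0407%), all of them higher, among them 2210409D07Rik, Cidea, Fbp2, Mgll and Pdk4. These 5 also had positive differences in CCM hearts and were not called there. No CCM heart detected 2210409D07Rik, so its CCM difference is one between background readings. Pdk4 differed by 0.93 in CCM and 1.89 in WT hearts (difference between genotypes -0.95, interval -1.80 to -0.10). Ucp3, detected in 5 of the 10 CCM hearts, gave 0.57 in CCM and 1.49 in WT hearts (difference -0.92, unadjusted interval -1.74 to -0.10). Angptl4 was closer, with 2.27 in CCM and 2.87 in WT hearts. Of the pathway lists with CCM medians of 0.15 or more, all but the interferon list also had positive medians in WT hearts. PPAR alpha targets had 0.35 there with 22 of 24 positive, and fatty acid oxidation 0.23 with 25 of 27. Triglyceride synthesis had 0.12 with 10 of 12, and ATF4 genes 0.07 with 18 of 23. Extracellular matrix had 0.15 with 29 of 33, and interferon genes -0.26 with 3 of 22. Of the 20 genes of smallest p in CCM hearts, 18 had the same sign in WT hearts, and across all genes the diet differences of the genotypes had a Pearson correlation of 0.37 (Spearman 0.34, across genes, which are not independent). The largest difference between genotypes among the 20 was that of Vgll2, with 1.09 in CCM and 0.06 in WT hearts (difference 1.03, interval 0.36 to 1.70, adjusted p = 1.0).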

How the data were processed

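Heart RNA of 19 mice was measured on Illumina bead arrays, 1 per animal. Per the file headers, the authors deposited unnormalized average signals (linear intensities) and, beside each, a detection p-value. Their deposited table of normalized intensities served as an alternative. The tool that the submitters' processing notes name is BeadStudio 3.

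Background correction and quantile normalization used neqc (limma 3.58.1, R 4.3.3, offset 16), and all values printed are log2 of these signals, computed here from the deposited intensities and not a log2 scale of the authors. It understates the change of dim genes. Probes detected (p under 0.05) on at least 4 of 19 arrays were kept (19840 of 46643), and the detected probe of highest mean stood for its gene. Probe names were updated through a RefSeq table of GRCm38.p6: 26160 probes matched through an accession, 4623 through a symbol and 3898 through a former one, 11953 were left with the array file's name, and 9 of 39 whose symbol had become a date could not be named.

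A mean per group was fitted over the 19 arrays with lmFit and eBayes (15 residual degrees of freedom), two-sided, with Benjamini-Hochberg adjustment over 14759 genes and a call at an adjusted p under 0.05. The fit was tested on simulated data. Alternatives were other background, offset, normalization, detection and probe choices, trended and robust eBayes, array weights, CCM arrays alone, animal number as a block or apart, and arrays left out singly or as the 3 dimmest. A shift of each array over all probes, and the block without the dimmest arrays, were chosen after seeing the data.

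Groups, gene lists and the rule for named genes were chosen with earlier results of these data known. The rule takes the called genes, the 20 of smallest p, up to 4 members of smallest p in each pathway list, any measured member of the PPAR alpha, triglyceride synthesis and uncoupling protein lists, Clock, and up to 5 genes of smallest p between genotypes. The results of 1 gene that the rule takes are not reported here. Named outside it are cell type markers and genes said to be singled out. Replicate numbers follow accession order and pair no animals. The number of arrays and their signal over background limit the precision.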

Additional observations from a re-analysis of the deposited data

Results flagged for a closer look

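In 14 of 150 sets of 5 animals, 1 animal lay apart from the other 4 of its group by more than Dixon's 95% limit, which chance reaches in about 1 of 20 sets. The animals recur, and the values below are normalized log2 signals. CCM high fat replicate 2 was the highest of its group for Fgf21 (7.24, next 6.37), Cpt1a (6.74, next 6.09), Gpat3 (8.51, next 8.06), Fasn (9.95, next 9.37) and Scd1 (10.86, next 10.18). CCM normal replicate 4 was the highest of its group for Angptl4 (9.82, next 7.54), Pdk4 (14.11, next 12.76) and Ucp3 (5.94, next 5.27). Both animals also had the highest summed adipocyte marker signal of their groups, 1904 and 4222. CCM high fat replicate 1 was the lowest of its group for Aqp8 (6.06, next 6.67) and Scd2 (10.33, next 10.56). Single flags fell on CCM normal replicate 1, the lowest for Decr1 (10.55, next 10.92), and on CCM high fat replicate 4, the highest for Mgll (12.43, next 12.31). CCM high fat replicate 5 was the lowest for Lum (11.48, next 11.64), and CCM normal replicate 2 the highest for Psmc1 (9.44, next 5.03).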

How the results depend on the processing

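The count of genes changed by the diet in CCM hearts, 4 as reported, moved with the processing. It was 7 without background correction, 7 with the authors' normalized values, 7 with a median shift in place of quantile normalization, 8 with an offset of 50, 2 without a detection filter, 12 with array weights and 1 (Vgll2) in a fit of the CCM arrays alone. It was 10 with a block on animal number, 7 with that block and without the 3 dimmest arrays, 1 (Fgf21) after a shift over all probes, which moved the median of all genes to -0.06, and 0 among animals numbered under 20 or over 20 alone. Leaving out 1 animal gave 0 to 8 calls. The cause of these moves was not tested, and the fits of part of the animals also differ in sample size. Genes whose diet difference differed between genotypes numbered 0 in every fit, with 295 to 1379 at an unadjusted p under 0.05. In the 21 pathway lists with a median within 0.1 of 0, leaving out 1 animal gave medians from -0.12 to 0.11, and the sign turned in 15. Of the named genes, Dgat2 changed sign among animals numbered over 20 (-0.011), without the 3 dimmest arrays (-0.0047), after the shift over all probes (-0.026) and with block and array choice together (-0.033). Ppargc1a (0.052) and Usp2 (0.072) changed sign among animals numbered over 20. No paired analysis was possible because replicate numbers follow accession order and name no shared animal, litter or day. Precision was limited by signal over background for Fgf21, Aqp8, Acot4, Ucp3 and 2210409D07Rik, which were undetected in part of the hearts.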
